A study of Homo sapiens with 2 samples.

Results

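The YAP/TEAD target genes described here are 10 genes (ANKRD1, CCN1, CCN2, AMOTL1, AMOTL2, AXL, LATS2, FJX1, GGH and F3) that are commonly used as transcriptional readouts of the coactivator YAP and its DNA-binding TEAD partners. They were chosen by name from a list and matched to the array's transcript clusters, the array's unit for a gene, by their single gene symbol. All 10 were found, each with 1 cluster, among 18417 genes with a single symbol. RNA was compared between ACHN cells transfected with an shRNA against Kindlin-2 and ACHN cells transfected with a control shRNA. ACHN is an established human renal carcinoma line, and both cultures were kept in minimum essential medium with 10% fetal bovine serum and 400 µg/ml of G418, a drug that selects transfected cells. The sources used here give neither the sequence of the shRNA nor whether the cells were a clone or a pool. Each group held 1 Affymetrix Human Gene 1.0 ST array (n = 1), so no difference below has a replicate check, a standard error or a p-value, and the precision is limited by the number of arrays. All levels are deposited RMA signals on the log2 scale, and all differences subtract the control shRNA signal from the Kindlin-2 shRNA signal.

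YAP, encoded by YAP1, and its paralog TAZ, encoded by WWTR1, do not bind DNA themselves. They enter the nucleus when the Hippo kinases are inactive and act there through TEAD1 to TEAD4, which recognise the sequence GGAATG. The kinases MST1 and MST2 activate LATS1 and LATS2, which phosphorylate YAP and TAZ and hold them in the cytoplasm. Adhesion to the matrix and actin tension also act on YAP, and several targets (LATS2, AMOTL1 and AMOTL2) encode inhibitors of YAP and so form negative feedback. Kindlin-2, an adaptor at integrin tails, has been linked to YAP1 and TAZ protein levels in mesenchymal stem cells. The arrays measured RNA and therefore show neither the location nor the phosphorylation of YAP.

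FERMT2, which encodes Kindlin-2, had a log2 signal of 8.26 in the Kindlin-2 shRNA array and 9.37 in the control shRNA array, or 46.4% of the control level. The array medians were 6.53 and 6.51 in the same order. PAX8, a renal lineage factor, had 11.29 in the Kindlin-2 shRNA array and 11.43 in the control shRNA array, and the epithelial keratin KRT8 had 12.11 and 12.65. The renal carcinoma markers found (8 of 10) all passed the floor given below, with differences from -0.66 (PAX2) to 0.91 (CDH6), 3 above 0 and 5 below. CDH6 and CA12 (0.74) passed 1.5-fold upward and PAX2 downward, against 5.1% upward and 5.23% downward over all genes that passed the floor. CDH6 passed the floor through the Kindlin-2 shRNA array alone, with 7.32 there and 6.41 in the control shRNA array. CA9 and NDUFA4L2, the other listed markers, were not analysed here. The leukocyte markers found (3 of 4) and the endothelial markers (4 of 4) lay below the filter floor on both arrays. The floor was a log2 signal of 6.52, which is the middle value of the whole table, and the higher of a gene's values had to reach it. It kept 11822 genes. Among the fibroblast and smooth muscle markers, DCN and LUM lay below the floor, while 4 of 6 passed it. Of these, COL1A1 had 7.45 in the Kindlin-2 shRNA array and 7.28 in the control shRNA array, COL3A1 6.52 and 6.51, ACTA2 9.64 and 10.40, and PDGFRB 6.31 and 7.08. The part of other cells in the results was not tested.

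Of the 10 targets, 8 had a higher signal in the Kindlin-2 shRNA array and 2 a lower one, but the sizes differed widely. The 8 include CCN1, whose difference of 0.01 has no settled sign. Of the 9 that passed the floor, 7 were higher and 2 lower. Among all 11822 genes kept, 5489 were higher and 6285 lower. ANKRD1, GGH and FJX1 were higher by over 2-fold, and no target was lower by that much. Among all genes kept, 1.41% passed 2-fold upward and 1.26% downward. A further 4 targets lay between these and the targets near 0 and did not reach 1.5-fold, 3 of them higher (AXL, AMOTL1 and F3) and 1 lower (AMOTL2). The other 3, CCN1, CCN2 and LATS2, lay within 0.2 of 0 on the log2 scale. The median difference was 0.44 over all 10 targets and 0.49 over the 9 that passed the floor, against -0.02 over all genes kept. ANKRD1 passed the floor through the Kindlin-2 shRNA array alone, and F3 did not pass it. Without ANKRD1 the median over the 8 that passed was 0.33. These summaries describe 10 genes picked with earlier results of the same arrays known.

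**Figure D1:**
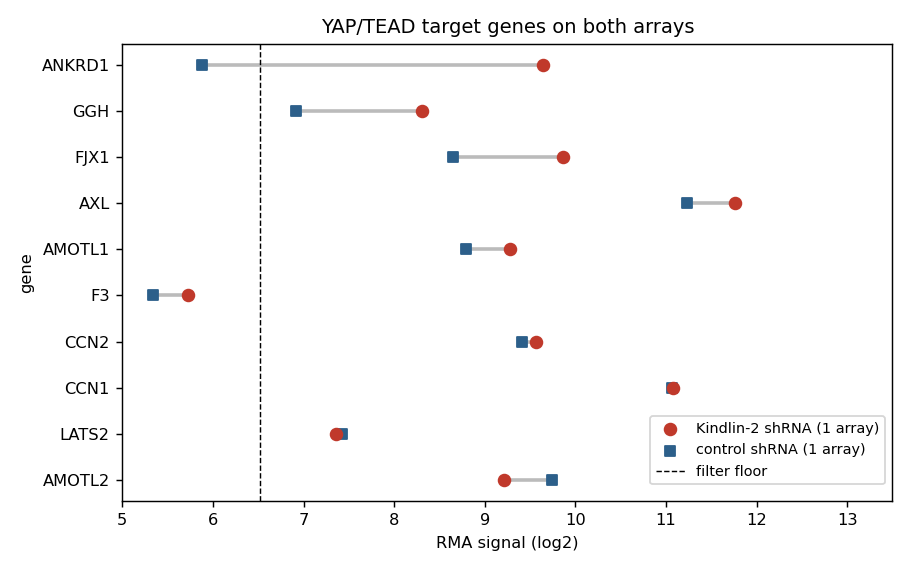
Log2 RMA signal of the 10 YAP/TEAD targets (rows, ordered by difference) on the Kindlin-2 shRNA array (circles) and the control shRNA array (squares), with 1 array per group and no error bars. ANKRD1 has the widest gap, 9.64 in the Kindlin-2 shRNA array against 5.87 in the control shRNA array, and the dashed line marks the filter floor of 6.52.

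The secreted CCN proteins, matricellular ligands of integrins and heparan sulfate, are the best known YAP targets, and they hardly differed between the arrays. CCN1 (formerly CYR61) had a log2 signal of 11.08 in the Kindlin-2 shRNA array and 11.07 in the control shRNA array, a difference of 0.01. CCN2 (formerly CTGF) had 9.57 in the Kindlin-2 shRNA array and 9.41 in the control shRNA array, a difference of 0.16. The genes kept were divided into 10 bins of equal number by mean signal. Of the 1182 genes in the bin of CCN2, 61.3% differed by at least as much, and for CCN1 the share was 97.0% of 1183 genes. The sign of the CCN1 difference is not settled, since it was -0.07 once the median over its 50 closest neighbours on the chromosome was subtracted. CCN2 was at 0.02 after the same subtraction. CCN3, a family member usually described as acting against CCN2, had 10.31 in the Kindlin-2 shRNA array and 9.98 in the control shRNA array. CCN5, which lacks the C-terminal domain of the family, differed by 0.12, and CCN4 and CCN6 lay below the floor with differences of 0.12 and 0.19 in that order.

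ANKRD1, an ankyrin repeat protein that acts as a nuclear cofactor and binds titin in muscle, was the target with the largest difference. Its log2 signal was 9.64 in the Kindlin-2 shRNA array and 5.87 in the control shRNA array, a difference of 3.77, or 13.6-fold between the signals. The control value lay below the floor, where a dim transcript and an absent one cannot be told apart, so the fold is that of the signals and not of a measured control transcript level. By the difference between the signals it ranked 2 of 11822 genes from the top, behind the potassium channel gene KCNJ15 (3.87). The membrane skeleton gene EPB41L3 (2.87) and the protocadherin gene PCDH20 (2.53) came next. All of these were its neighbours in the ranking by difference, and 2 arrays allow no finer measure of likeness. Its muscle paralog ANKRD2 went the other way, with 8.08 in the Kindlin-2 shRNA array and 8.67 in the control shRNA array, a difference of -0.59. ANKRD23, the third member of that ankyrin repeat family, lay below the floor with a difference of -0.08.

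The differences of ANKRD1 and CCN2 were thus far apart, and the stored promoters of both hold the TEAD core. The upstream stretches of both are shown to compare these sites. They come from RefSeq on GRCh38.p14, run from base -250 to base -1 before the annotated start, 5′ to 3′ on the gene's strand, and capitals mark GGAATG on that strand or its reverse complement CATTCC. ANKRD1 lies on the minus strand (chr10:90921088-90921337) and CCN2 on the minus strand (chr6:131951373-131951622).
ANKRD1: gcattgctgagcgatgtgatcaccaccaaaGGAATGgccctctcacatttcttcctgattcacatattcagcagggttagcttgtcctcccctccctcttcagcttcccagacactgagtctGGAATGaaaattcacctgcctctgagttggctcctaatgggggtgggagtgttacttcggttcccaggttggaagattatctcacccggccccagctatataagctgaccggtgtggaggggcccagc
CCN2: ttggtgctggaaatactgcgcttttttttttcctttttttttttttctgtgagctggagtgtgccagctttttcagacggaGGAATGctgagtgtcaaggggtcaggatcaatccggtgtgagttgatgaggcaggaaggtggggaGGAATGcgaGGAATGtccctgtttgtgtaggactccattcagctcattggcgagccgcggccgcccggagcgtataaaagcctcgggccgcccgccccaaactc
ANKRD1 holds the core at -220 and at -128, whereas CCN2 holds it at -169, -104 and -95, the last pair 3 bases apart. ANKRD1 also holds a match to the AP-1 motif TGANTCA at -195, and CCN2 holds none in its window. Neither holds a match to the CArG box, the motif of the serum response factor SRF.

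Promoters of other targets were searched in the same way, over the 300 bases from -250 to 50 bases past the start. Those of 8 of the 10 targets were searched, with 10 start sites in all. CCN1 and GGH were not searched, so whether they hold the core is left open and the count below leaves them out. The TEAD core was found for 5 of the 8 (ANKRD1, CCN2, AMOTL2, AXL and LATS2), against 16.7% of 27305 genes with a promoter in the table. AMOTL2 and AXL have 2 stored start sites each. The windows of 30 bases around the match in the other three are shown so that they can be set beside those of ANKRD1 and CCN2. AMOTL2 (chr3:134374499-134374528, minus strand) and AXL (chr19:41226531-41226560, plus strand) hold CATTCC at 1 of their start sites each, and LATS2 (chr13:21061560-21061589, minus strand) holds GGAATG just past its start.
AMOTL2: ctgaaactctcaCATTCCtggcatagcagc
AXL: cagactttgcacCATTCCactccctccgct
LATS2: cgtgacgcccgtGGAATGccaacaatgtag
AMOTL1, FJX1 and F3 had no match, which says only that these letters are not in these windows. F3 had 2 matches to TGANTCA, at -223 and -210, and 9.37% of all genes with a promoter hold that motif. None of the 8 held a CArG box, which 1.60% of genes do. The targets that hold the TEAD core are ANKRD1, with the largest difference of the 10, AXL (0.52), CCN2 (0.16), LATS2 (-0.07) and AMOTL2 (-0.54). Of the targets over 2-fold higher, ANKRD1 holds the core in its window, FJX1 does not, and GGH was not searched.

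Of the receptors among the targets, AXL did not reach 1.5-fold as deposited and F3 lay below the floor. AXL, a receptor tyrosine kinase of the TAM family, had a log2 signal of 11.76 in the Kindlin-2 shRNA array and 11.24 in the control shRNA array, a difference of 0.52 or 1.44-fold. In its signal bin 11.1% of genes differed by at least as much. It passed 1.5-fold when the median of its neighbours (0.60) or of chromosome 19 (0.62) was subtracted. GAS6, the ligand of AXL, was 1.94-fold lower, with 8.21 in the Kindlin-2 shRNA array and 9.16 in the control shRNA array. PROS1, protein S, which activates the other TAM receptors, had 9.44 and 9.83 in the same order, a difference of -0.38 that did not reach 1.5-fold. MERTK, another TAM receptor, had 7.16 in the Kindlin-2 shRNA array and 6.21, below the floor, in the control shRNA array. TYRO3 had 6.89 and 7.17. Of these genes, GAS6 alone passed 1.5-fold as deposited with both signals above the floor.

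F3, tissue factor, is the cell-surface receptor for factor VII that starts coagulation. It was dim on both arrays, with 5.72 in the Kindlin-2 shRNA array and 5.34 in the control shRNA array. Its difference of 0.38 is that of a gene below the floor, where a low signal cannot be told from an absent transcript. Among other genes of the tissue factor pathway, F7, which encodes its ligand, had 6.62 and 6.75, and F10, which encodes the substrate of their complex, had 6.68 on both arrays. TFPI, the inhibitor of the pathway, had 10.90 in the Kindlin-2 shRNA array and 11.00 in the control shRNA array. TFPI2, a related inhibitor of serine proteases, was 1.88-fold higher, with 11.09 in the Kindlin-2 shRNA array and 10.17 in the control shRNA array. Thrombomodulin (THBD), the anticoagulant receptor of thrombin, was 2.69-fold higher, with 8.36 and 6.93 in the same order. THBD lies on chromosome 20, where the median difference over the genes kept was 0.26, and its difference of 1.43 was 1.15 with neighbours subtracted. The difference of TFPI2 rose from 0.91 to 1.18, over 2-fold, with its own neighbours subtracted.

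The feedback inhibitors of YAP lay on both sides of 0, and none reached 1.5-fold. AMOTL1, an angiomotin family scaffold that binds YAP, had a log2 signal of 9.28 in the Kindlin-2 shRNA array and 8.79 in the control shRNA array, a difference of 0.49 or 1.41-fold. AMOTL2, its close paralog, had 9.21 in the Kindlin-2 shRNA array and 9.75 in the control shRNA array, a difference of -0.54 or 1.45-fold lower. AMOT, the founding member, had 7.98 and 8.18, a difference of -0.20. None of these angiomotin genes reached 1.5-fold. For AMOTL1 15.4% and for AMOTL2 13.9% of genes in the same signal bin differed by at least as much. LATS2, the kinase, had 7.35 in the Kindlin-2 shRNA array and 7.42 in the control shRNA array, a difference of -0.07, or -0.19 with neighbours subtracted. LATS1, the other LATS kinase, had 8.94 in the Kindlin-2 shRNA array and 8.72 in the control shRNA array.

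GGH and FJX1 were the other targets over 2-fold higher. GGH, gamma-glutamyl hydrolase, removes glutamates from folates and antifolates in the lysosome. It had a log2 signal of 8.31 in the Kindlin-2 shRNA array and 6.91 in the control shRNA array, a difference of 1.39 or 2.63-fold, and ranked 61 of 11822 genes from the top. FPGS, which adds the glutamates that GGH removes, was 1.30-fold lower, with 8.60 in the Kindlin-2 shRNA array and 8.98 in the control shRNA array. It was at -0.07 with neighbours on chromosome 9 subtracted. FJX1 is the human homologue of Drosophila four-jointed, a Golgi kinase that phosphorylates cadherin domains of Fat and Dachsous in the fly. It had 9.86 in the Kindlin-2 shRNA array and 8.65 in the control shRNA array, a difference of 1.21 or 2.32-fold, and ranked 91. In their signal bins 1.18% of genes differed by at least as much as GGH, and 1.35% by at least as much as FJX1. The human homologues of the fly substrates, FAT4 and DCHS1, were dim. FAT4 had 6.83 in the Kindlin-2 shRNA array and 6.50 in the control shRNA array, and DCHS1, below the floor on both, had 5.98 and 5.47.

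**Figure D2:**
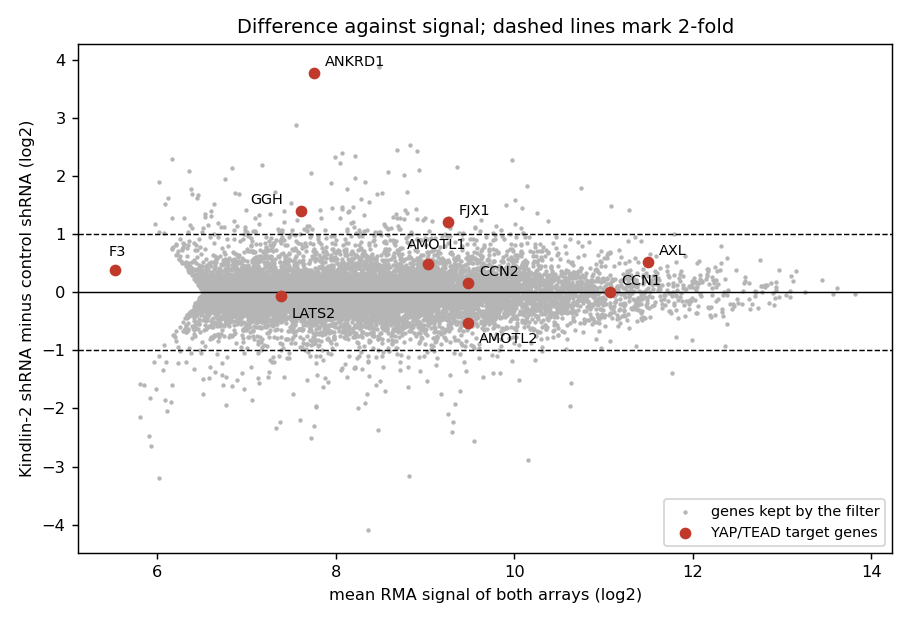
Difference (Kindlin-2 shRNA minus control shRNA, log2) against the mean log2 signal of both arrays for the 11822 genes kept (grey) and the 10 targets (red), with dashed lines at 2-fold. ANKRD1 (3.77), GGH (1.39) and FJX1 (1.21) lie above the upper line, CCN1, CCN2 and LATS2 lie near 0, and F3, which did not pass the floor, is drawn at the left.

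The genes that act on YAP were examined from a list of 42 Hippo pathway genes, which also holds 4 of the targets (FJX1, AMOTL1, AMOTL2 and LATS2). Without these 4, 30 passed the floor, with a median difference of -0.08 against -0.02 over all genes kept. Of the 30, 4 passed 1.5-fold upward and 3 downward, against 5.1% upward and 5.23% downward over all genes kept. The coactivators hardly differed. YAP1 had 9.74 in the Kindlin-2 shRNA array and 9.82 in the control shRNA array, and WWTR1 had 10.26 and 10.09. TEAD1 had 9.62 in the Kindlin-2 shRNA array and 9.60 in the control shRNA array, a difference of 0.02. TEAD4 was 2.17-fold lower, with 8.37 in the Kindlin-2 shRNA array and 9.49 in the control shRNA array, and lies on chromosome 12, where the median difference was -0.21. Its difference of -1.12 was -0.86 with neighbours subtracted, which is under 2-fold. TEAD2 was 1.58-fold lower, with 7.29 and 7.95. TEAD3 had 7.72 and 7.97, a difference of -0.25 that did not reach 1.5-fold and was -0.09 with neighbours subtracted.

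Among upstream genes, FRMD6, a FERM protein upstream of the kinases, was 1.96-fold higher, with 9.29 in the Kindlin-2 shRNA array and 8.32 in the control shRNA array. STK4, which encodes MST1, was 1.87-fold higher, with 9.40 and 8.50. STK4 also lies on chromosome 20, and its difference of 0.90 was 0.54 with neighbours subtracted, under 1.5-fold. STK3, which encodes MST2, had 7.80 in the Kindlin-2 shRNA array and 8.18 in the control shRNA array. MAP4K5 and MAP4K4, kinases that can activate LATS in parallel with MST1 and MST2, were 1.57-fold and 1.55-fold higher. WWC1 (KIBRA), a scaffold that promotes LATS activity, was 1.60-fold lower, with 9.92 in the Kindlin-2 shRNA array and 10.60 in the control shRNA array. 

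Other genes often listed as YAP or TEAD targets spread more widely than the Hippo pathway genes. Of 38 such genes 31 passed the floor, with a median difference of 0.05 and with 16 above and 15 below 0. Of these, 2 passed 2-fold upward and 3 downward, against 1.41% and 1.26% over all genes kept. At 1.5-fold 6 passed upward and 5 downward, against 5.1% and 5.23%. The crosslinking enzyme TGM2 was 3.48-fold higher, with 11.65 in the Kindlin-2 shRNA array and 9.85 in the control shRNA array. The growth factor TGFB2 was 2.15-fold higher, with 10.63 and 9.53 in the same order. With neighbours subtracted, the difference of TGFB2 was 0.87, under 2-fold, and that of TGM2, on chromosome 20, fell from 1.80 to 1.52. NT5E, which makes adenosine at the cell surface, was 1.88-fold higher, the stress gene GADD45A 1.88-fold and SHCBP1, a gene of dividing cells, 1.83-fold.

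The secreted proteins FSTL1 and CCDC80 were the lowest of that list. FSTL1 had 8.21 in the Kindlin-2 shRNA array and 10.30 in the control shRNA array, or 4.27-fold lower. CCDC80 had 8.37 in the Kindlin-2 shRNA array and 10.31 in the control shRNA array, or 3.82-fold lower. IGFBP3, which binds insulin-like growth factors, was 2.32-fold lower, beside GAS6, which is also in this list. The difference of IGFBP3 was -1.21 as deposited and -1.03 with neighbours subtracted. With the median of chromosome 7 subtracted it was -0.996, under 2-fold. The transcription factor FOXF2 was 1.63-fold lower, and at -0.53 with neighbours subtracted, under 1.5-fold.

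**Figure D3:**
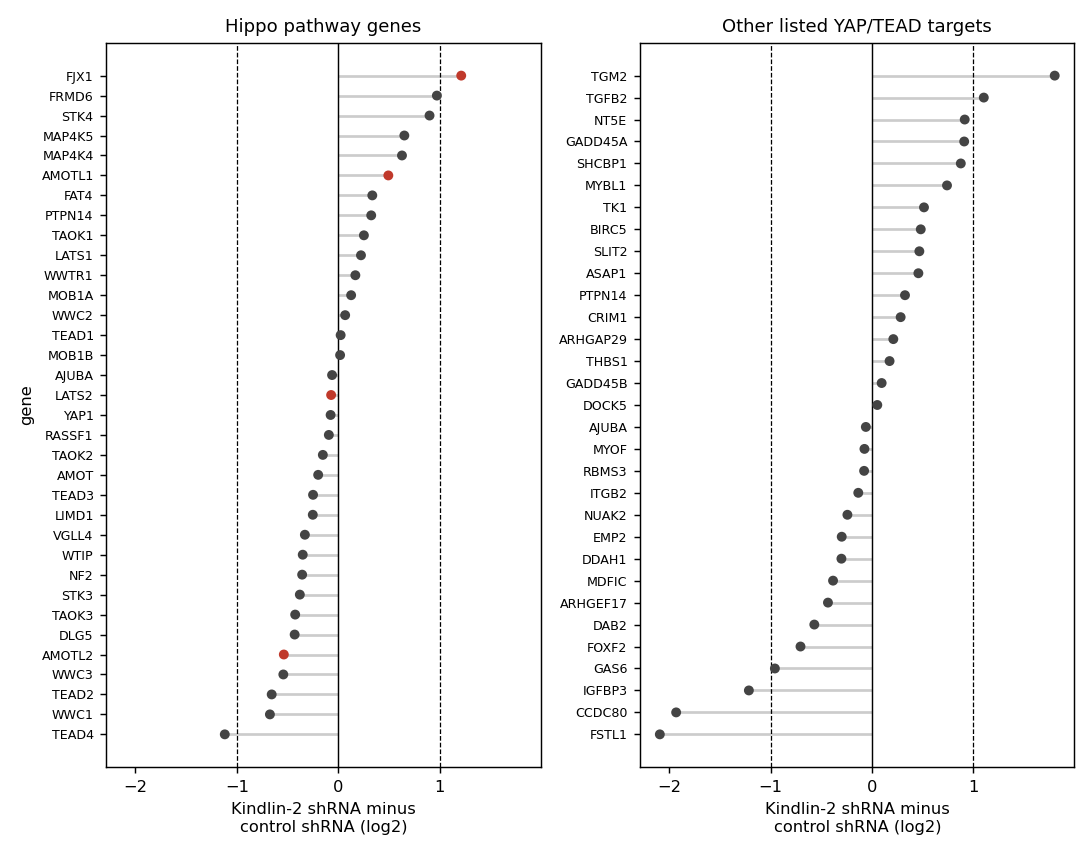
Difference (Kindlin-2 shRNA minus control shRNA, log2, horizontal axis) for the 34 Hippo pathway genes (left) and 31 other listed YAP/TEAD targets (right) that passed the floor, with the 4 targets described above in red and dashed lines at 2-fold. Both lists spread around 0, from -1.12 (TEAD4) to 1.21 (FJX1) on the left and from -2.09 (FSTL1) to 1.80 (TGM2) on the right.

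The chromosomes of the targets had median differences between -0.09 and 0.06 over the genes kept, and the median differences of their 50 neighbours lay between -0.09 (GGH) and 0.14 (CCN2). Over the scalings and chromosome corrections tried, the difference of ANKRD1 ranged from 3.69 to 3.80, that of GGH from 1.38 to 1.48 and that of FJX1 from 1.17 to 1.23. AMOTL2 stayed between -0.57 and -0.51 and AMOTL1 between 0.48 and 0.51, so the paralogs kept opposite signs. AXL ranged from 0.49 to 0.62 and passed 1.5-fold only under the chromosome corrections, and F3 ranged from 0.32 to 0.41. CCN2 ranged from 0.02 to 0.21 and LATS2 from -0.19 to -0.05, with CCN2 lowest and LATS2 farthest below 0 when neighbours were subtracted. CCN1 ranged from -0.07 to 0.01 and took both signs.

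**Figure D4:**
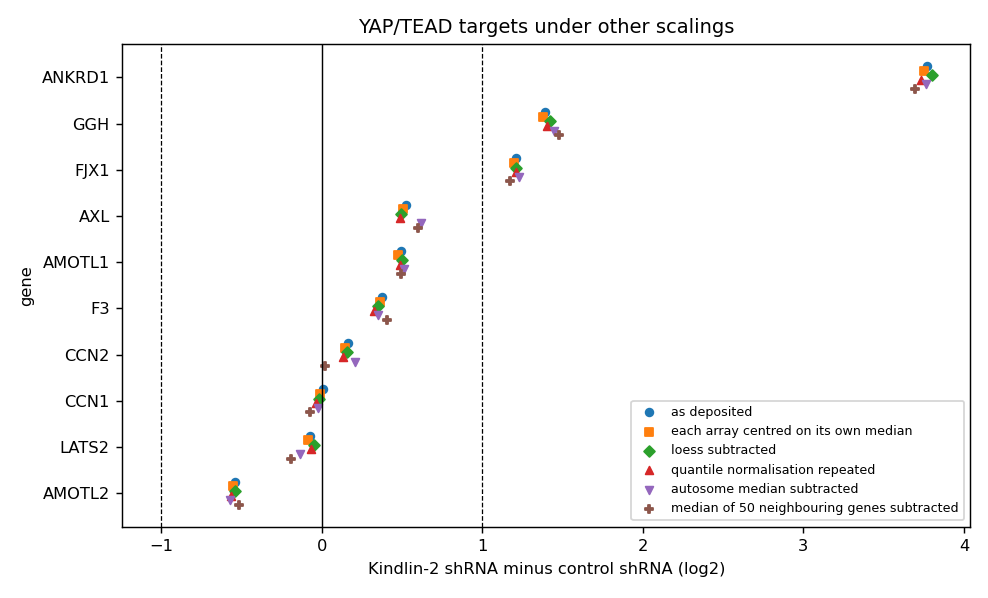
Difference (Kindlin-2 shRNA minus control shRNA, log2, horizontal axis) of each target as deposited and under 5 other scalings (symbols), with dashed lines at 2-fold. ANKRD1, GGH and FJX1 stay above the upper line under each, and the symbols of CCN1 fall on both sides of 0.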

How the data were processed

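RNA was measured on 1 array per group. Per the submitters' processing notes the authors ran RMA, with Affymetrix Expression Console 1.4.1 as the software, and they deposited log2 values of 33297 transcript clusters, judged log2 from their range of 2.13 to 14.04. RMA corrects background, aligns the arrays' distributions, summarises probes and compresses differences between dim values, so folds are on that scale. The library file and annotation build are not stated. Symbols came from GEO's platform annotation, updated through Entrez IDs to RefSeq (GRCh38.p14). Clusters with several symbols were left out, and the brightest cluster stood for a gene.

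Differences, folds, counts at 2-fold and medians were computed with Python 3.11.15 and pandas 2.3.3. The 2-fold rule was also tried on simulated data. The planted changes lay far beyond the simulated noise, so this trial is no check of the counts given here. The members and lists were chosen with earlier results of these data known. The text names all members, FERMT2, the YAP and TEAD genes, the partner genes analysed, up to 5 genes per direction and list at 1.5-fold or more, and the genes ranked next to ANKRD1. The authors' deposited values allowed no test. Alternatives were other scalings, floors, fold thresholds, cluster rules and chromosome corrections. The 10 signal bins were formed over the genes kept. A planned comparison of protein sequences was not run.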

Additional observations from a re-analysis of the deposited data

How the results depend on the processing

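No paired analysis was possible because each group held 1 array, and no array could be left out for the same reason. All alternatives were planned, but with earlier results of these data known. A value was taken as moved when it shifted by 0.1 or more on the log2 scale, and a count when it differed by over 1.5 times. Of 60 recomputed differences of single targets, 58 did not move. The exceptions, with the median of 50 neighbouring genes subtracted, were CCN2 (0.02) and LATS2 (-0.19), and the cause was not tested. Many of the 58 could not have moved. Each target has 1 cluster, so averaging clusters changed nothing. The array medians (6.53 and 6.51) and the targets' chromosome medians (-0.09 to 0.06) shift values by under 0.1. The count is therefore no measure of stability. The mean difference of the 9 targets was 0.77, which holds ANKRD1 at its full size, against a median of 0.49. At 3-fold 1 target was higher. With a floor at the 75th percentile, which leaves fewer genes, the median of the Hippo list was 0.10, against -0.07 for all its 34 genes, and that of the SRF and MRTF list was -0.030. With that floor 102 genes of all kept were at least 2-fold higher and 91 lower, against 167 and 149. At 1.5-fold the counts were 603 higher and 618 lower, and at 3-fold 40 and 44. An 8-letter TEAD motif, a purine, GGAATG and a pyrimidine, was found for 2 targets (4.87% of all genes with a promoter), and the core within 200 bases before the start for 3 (11.5% of all). Signals under the floor (F3, and ANKRD1 in the control shRNA array) cannot be separated into dim and absent.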

Other observations

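Targets of SRF and its MRTF coactivators, actin-responsive factors that share some genes with YAP, went both ways in the Kindlin-2 shRNA array. Of 24 listed genes 20 passed the floor, 8 above and 12 below 0, with a median difference of -0.13 against -0.02 over all genes kept. The actin oxidoreductase MICAL2 was 2.02-fold higher, with 10.60 in the Kindlin-2 shRNA array and 9.59 in the control shRNA array. With neighbours subtracted, its difference fell from 1.02 to 0.98, under 2-fold. EGR1, an immediate early transcription factor, was 2.44-fold lower, with 8.17 and 9.46 in the same order. Smooth muscle actin (ACTA2) was 1.70-fold lower, with 9.64 in the Kindlin-2 shRNA array and 10.40 in the control shRNA array, and the LIM protein FHL2 1.56-fold lower, with 9.06 and 9.71. ACTA2 lies on chromosome 10, as ANKRD1 does, and differed in the opposite direction.

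Of 14 genes often used as references 11 were found, with a median difference of 0.10, between -0.22 (PPIA) and 0.57 (TFRC). None passed 1.5-fold, which 5.1% of all genes kept did upward and 5.23% downward.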
